A study of Populus yunnanensis and Populus davidiana with 24 samples.

Results

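AIL1 (Potri.002G114800.v3.1) and its paralog AIL4 (Potri.014G012200.v3.1) are AINTEGUMENTA-like genes of poplar. They were followed by identifier in cutting stems of 2 poplar species that differ in rooting, Populus yunnanensis and Populus davidiana. Both identifiers were present, which makes 2 of the 43836 gene models of the expression table, and both passed the filter on low values (1 FPKM or more in 3 or more libraries), as did 24643 gene models in all. Their identifiers carry the numbers of chromosomes 2 and 14, and coordinates were not used here.

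AINTEGUMENTA-like genes encode AP2-type transcription factors with a double AP2 DNA-binding domain. In Arabidopsis the family holds AINTEGUMENTA, which keeps cells of growing organs competent to divide, and the PLETHORA genes, which maintain the root stem cell niche in response to auxin. In poplar AIL1 is known as a promoter of adventitious rooting, the formation of roots from stem tissue, and as an activator of cell cycle genes in the seasonal control of shoot growth. AIL4 is known less well and belongs to the same group of growth-related paralogs. Populus davidiana is an aspen, a group whose stem cuttings are known to root poorly.

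Every group consisted of stems of cuttings 15 cm long, made from annual branches whose buds and leaves had been taken off, and no other agent is named in the labels. The groups were P. yunnanensis at 0, 48, 96 and 120 h and P. davidiana at the same times, with 3 replicate libraries each and 24 libraries in all. The labels do not say whether replicates came from separate plants, so p-values reflect only how these libraries spread, which may be technical. Levels are FPKM, fragments scaled to gene length and to the mapped fragments of the library, and can be compared between genes because they are per length.

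Read numbers are unknown, but the steps between low values gave a relative depth of 0.832 to 1.11 in P. yunnanensis and of 0.620 to 0.834 in P. davidiana. Replicates at 0 h in P. yunnanensis were uneven, with 9.71, 23.0 and 15.7% of all FPKM in the 20 most abundant genes. As deposited, the median log2 change of all tested genes in P. yunnanensis against 0 h was 0.10, 0.33 and 0.34 at 48, 96 and 120 h, against 0.0032, 0.027 and 0.083 in P. davidiana. Median ratio scaling, which sets the typical gene among those detected in every library equal, is therefore given where it bears on a value. It does not remove the shift between species. The median P. davidiana minus P. yunnanensis difference of all tested genes was -0.13, -0.095, -0.14 and -0.10 with it at 0, 48, 96 and 120 h. As deposited it was -0.078, -0.15, -0.34 and -0.29. Defining markers of stem tissues could not be matched to identifiers and were not used here.

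Neither gene was at 0 in any library. AIL1 reached 1 FPKM in 19 of 24 libraries, 10 of P. yunnanensis and 9 of P. davidiana. AIL4 did so in 11 libraries, 9 of P. yunnanensis and 2 of P. davidiana. By mean FPKM AIL1 stood highest in P. yunnanensis at 120 h, where its level exceeded that of 40.2 to 54.3% of tested genes in the same library. In P. davidiana at 0 h it exceeded 50.3 to 52.6% of them. In P. yunnanensis at 48 h it exceeded only 13.0 to 19.0% of them. AIL4 exceeded 25.7 to 38.6% of tested genes in P. yunnanensis at 120 h and 16.2 to 21.3% in P. davidiana at that time. The residual SD between replicates was 0.60 for AIL1 and 0.56 for AIL4 on the log2(FPKM + 1) scale, against a median of 0.41 over all tested genes.

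**Figure D1:**
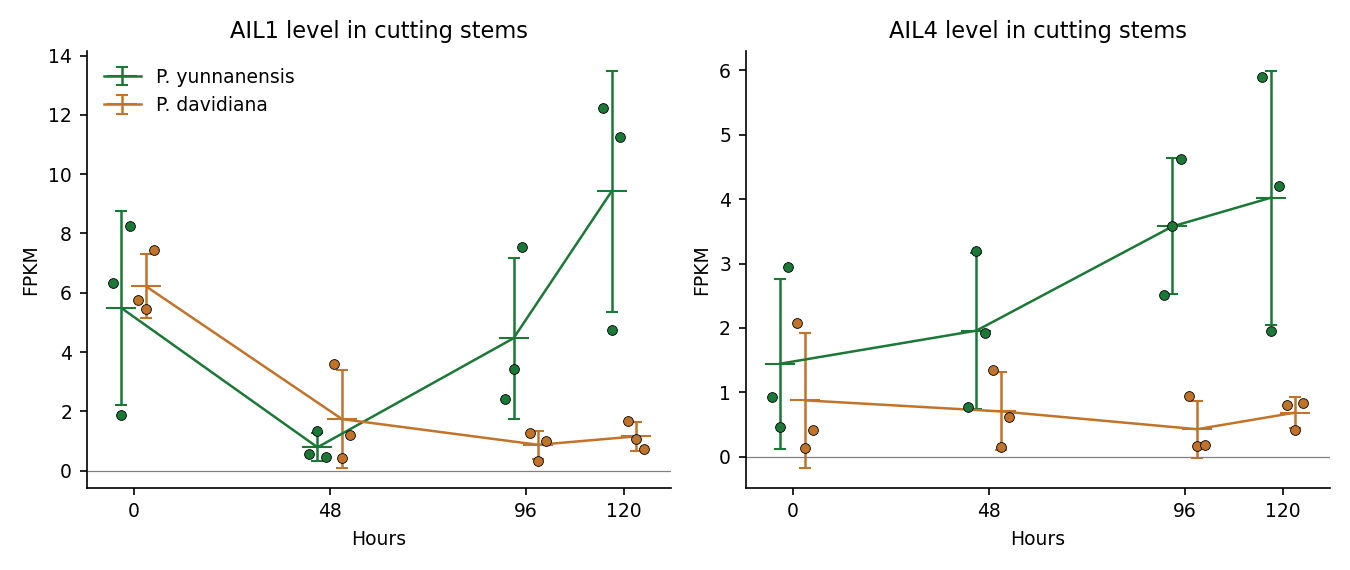
AIL1 (left) and AIL4 (right) level in FPKM against hours, with 1 point per library, a horizontal dash at the mean of 3 libraries and bars of 1 SD. The AIL1 mean at 48 h is below that at 0 h in both species, although P. davidiana replicate 1 stands at 3.58 FPKM. At 120 h AIL1 differs, with P. yunnanensis at 4.76 to 12.2 FPKM against 0.726 to 1.68 in P. davidiana.

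The time course in P. yunnanensis asked how AIL1, the regulator tied to adventitious rooting, behaved in the stem after the first sampling. AIL1 fell by 48 h and stood high again by 120 h. The 3 libraries at 0 h held 6.33, 1.87 and 8.26 FPKM, and those at 48 h held 0.562, 1.34 and 0.468. All 3 libraries at 48 h lay below all 3 at 0 h, although replicate 2 at 0 h was well below the others. How many of all tested genes separate in this way was not counted, here or in the comparisons below. The means were 5.49 ± 3.28 and 0.789 ± 0.476 FPKM (SD, n = 3 each), so the mean at 0 h was 6.96 times that at 48 h. AIL1 fell by 1.73 on the log2(FPKM + 1) scale (SE 0.47, limma adjusted p = 0.0163), and 3.23% of tested genes had a lower change. In this comparison 15.6% of tested genes were called and 6.49% of tested genes were called lower, so a call alone is not rare here, and 1 of the 2 AIL genes was called. The call ended with the spread weighted by group (adjusted p = 0.101), with a fit of the 6 compared libraries (0.176), and without 0 h replicate 1 (0.0555), 0 h replicate 3 (0.0722) or 48 h replicate 3 (0.0645), and the adjusted p over all its alternatives ran from 0.00149 to 0.176. With median ratio scaling it was adjusted p = 0.00403.

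At 96 h the P. yunnanensis libraries held 2.42, 3.435 and 7.55 FPKM of AIL1, and at 120 h they held 12.2, 4.76 and 11.3. Each library at 96 h and at 120 h lay above every library at 48 h, while the libraries at 96 and 120 h overlapped those at 0 h. The mean was 4.47 ± 2.72 FPKM at the first of these times (SD, n = 3). By 120 h the mean had reached 9.42 ± 4.07 FPKM (SD, n = 3), and it was 11.9 times the mean at 48 h. From 48 to 120 h AIL1 rose by 2.48 on the log2 scale (SE 0.47, 95% interval 1.50 to 3.46, limma adjusted p = 0.00782), a comparison chosen after the values were seen. Only 1.87% of tested genes were called between these times and 1.68% of tested genes were called higher, while 99.7% had a lower difference than AIL1. The rise was 2.22 with median ratio scaling (adjusted p = 0.00919). The 6 compared libraries alone ended the call (adjusted p = 0.227), in a limma fit that called 0 of 24643 genes, with 3777 at an unadjusted p under 0.05. The call also ended on leaving out 120 h replicate 1 (0.0763) or replicate 3 (0.0505), in a range of 0.00323 to 0.227.

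The steps in between did not pass the test. From 48 to 96 h the AIL1 difference was 1.53 (SE 0.47, adjusted p = 0.227, unadjusted p = 0.00383), in a comparison where 0.292% of tested genes were called. From 96 to 120 h it was 0.95 (SE 0.47, adjusted p = 0.999), with 0.0325% of tested genes called. Against 0 h the AIL1 level differed by -0.20 at 96 h (95% interval -1.17 to 0.78, adjusted p = 0.794) and by 0.76 at 120 h (95% interval -0.22 to 1.73, adjusted p = 0.217). At these times 27.4% and 36.1% of tested genes were called. The intervals leave room for a change of more than 1 log2 unit at either time, so equality with 0 h is not shown.

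In P. davidiana AIL1 was called lower than at 0 h at both 96 and 120 h. The libraries at 0 h held 5.75, 5.46 and 7.46 FPKM, close together, and those at 48 h held 3.58, 0.415 and 1.22. All 3 at 48 h lay below all 3 at 0 h, with replicate 1 the highest of them. The difference of -1.56 at 48 h (SE 0.47, limma adjusted p = 0.0666) did not pass the threshold, where 3.93% of tested genes did and 1.9% of tested genes were called lower. It passed with the replicate number as a block (adjusted p = 0.042), median ratio scaling (0.0274), quantile normalization (0.0194), the spread weighted by group (0.0444) and without 48 h replicate 1 (0.024), in a range of 0.0194 to 0.25.

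The P. davidiana libraries held 1.27, 0.337 and 1.01 FPKM of AIL1 at 96 h and 1.68, 1.07 and 0.726 at 120 h. None of these 6 reached the lowest library at 0 h. The means were 6.22 ± 1.08, 1.74 ± 1.65, 0.873 ± 0.482 and 1.16 ± 0.482 FPKM in the order of time (SD, n = 3 each), so the mean at 0 h was 5.37 times that at 120 h. AIL1 fell by 1.97 at 96 h (SE 0.47, limma adjusted p = 0.00726). At 120 h the fall against 0 h was of similar size, at -1.76 (SE 0.47, limma adjusted p = 0.0117). Of tested genes 14.9% were called at 96 h and 19.8% at 120 h, and the shares of tested genes called lower were 6.19% and 7.04%. The call at 96 h held under all 15 alternatives, and that at 120 h ended without 120 h replicate 3 (adjusted p = 0.0515, range 0.00117 to 0.0515). Between 48 and 120 h the P. davidiana difference was -0.20 (95% interval -1.17 to 0.78, adjusted p = 0.912), where 6% of tested genes were called. From 48 to 96 h it was -0.41 (adjusted p = 0.862, 0.71% of tested genes called) and from 96 to 120 h 0.22 (adjusted p = 1, 0.0243% called).

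**Figure D2:**
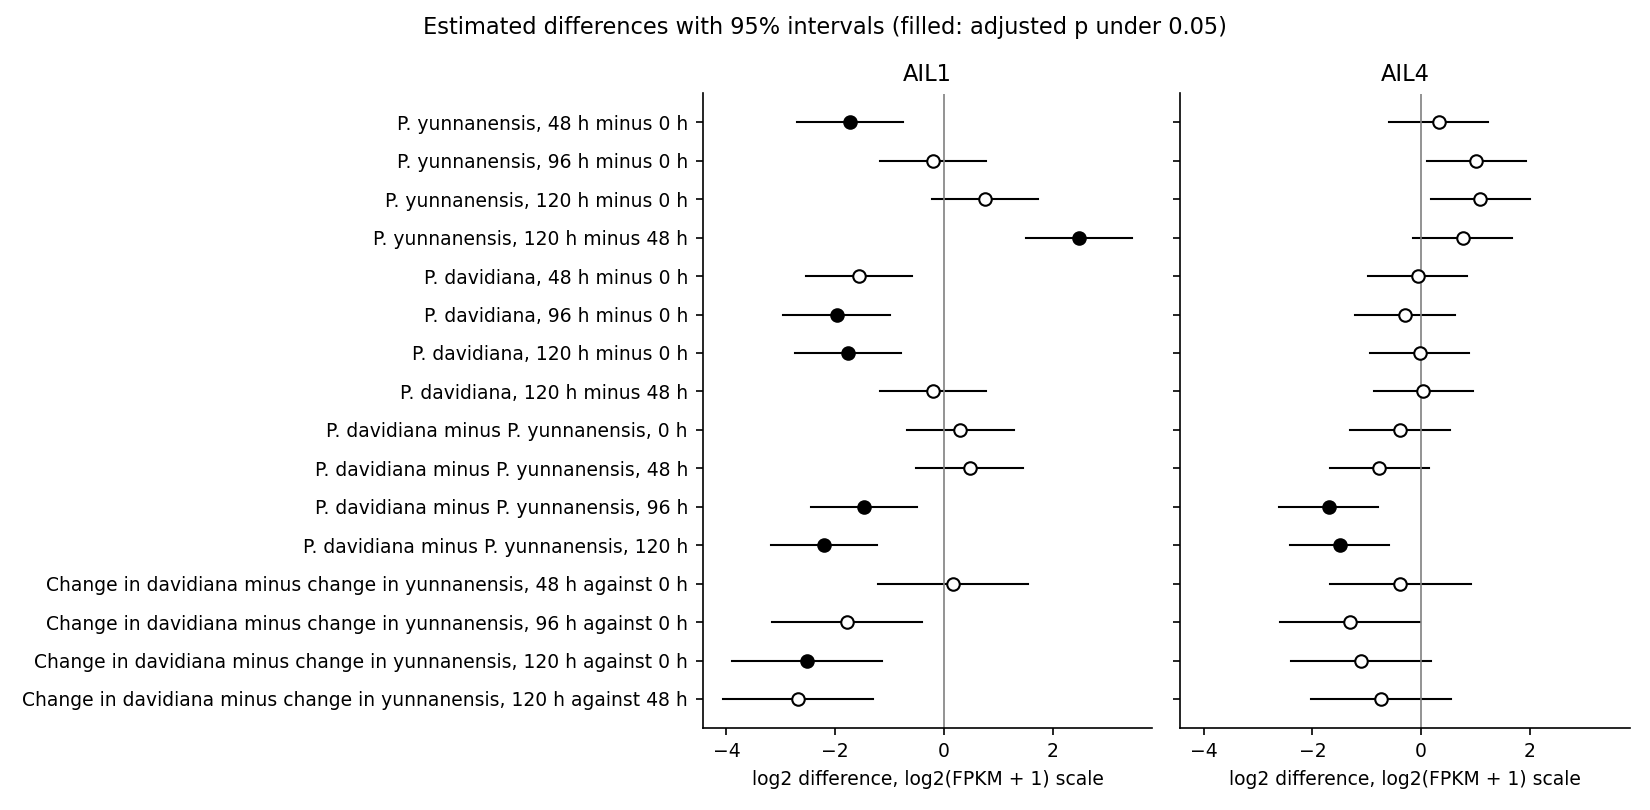
Estimated log2 differences on the log2(FPKM + 1) scale for AIL1 (left) and AIL4 (right), with 95% intervals as lines and filled points where the limma adjusted p was under 0.05. AIL1 has filled points in both time courses, AIL4 only in the species rows at 96 and 120 h.

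None of the changes of AIL4, the paralog, over time passed the test in either species. In P. yunnanensis the libraries held 0.931, 0.459 and 2.95 FPKM at 0 h and 0.768, 3.19 and 1.92 at 48 h. They held 2.52, 3.58 and 4.63 at 96 h and 5.895, 1.96 and 4.21 at 120 h. The libraries of each later time overlapped those of 0 h. The means were 1.45 ± 1.32, 1.96 ± 1.21, 3.58 ± 1.06 and 4.02 ± 1.98 FPKM in the order of time (SD, n = 3 each). Against 0 h the AIL4 differences were 0.32 (adjusted p = 0.686), 1.01 (SE 0.44, adjusted p = 0.0896) and 1.09 (SE 0.44, 95% interval 0.17 to 1.996, adjusted p = 0.0579). Among the fits without a replicate block, the difference at 96 h passed without 0 h replicate 3 (adjusted p = 0.0242, range 0.0242 to 0.309). Among the same fits it passed at 120 h without 0 h replicate 3 (0.0148) or 120 h replicate 2 (0.0235), in a range of 0.0148 to 0.225.

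The AIL4 level in P. yunnanensis moved with the scaling of the libraries. The median ratio factor of a library comes from all genes detected in every library, so a typical gene follows it too. The share of tested genes with an r as high was not computed. The r and p below therefore do not set either gene apart from other genes. Across the 12 libraries, log2(FPKM + 1) of AIL4 and the log2 median ratio factor had a Pearson r of 0.948 (permutation p = 1e-05, the smallest that 100000 resamples can give, adjusted p = 0.00012) and a Spearman rho of 0.909 (permutation p = 0.00011, adjusted p = 0.00132). Without the 2 libraries farthest from the median factor r was 0.894. For AIL1 in the same libraries r was 0.574 (permutation p = 0.0507, adjusted p = 0.101) and rho was 0.580 (p = 0.0512, adjusted p = 0.0878), with r = 0.429 without the 2 farthest. In P. davidiana r was 0.241 for AIL4 (permutation p = 0.451, adjusted p = 0.492) with a rho of 0.217 (p = 0.499, adjusted p = 0.544). For AIL1 there r was -0.035 (permutation p = 0.914, adjusted p = 0.914) and rho was 0.0979 (p = 0.767, adjusted p = 0.767). Without the 2 farthest libraries these r were -0.28 and -0.19. These permutations exchange libraries of different times, while both measures also differ between times. Deviations from the mean of each time were therefore also permuted within times, a test added after the values were seen. With 3 libraries per time there are few such arrangements. The permutation p of 0.00076 and 0.00072 below are therefore about the smallest possible, whatever the number of resamples. In P. yunnanensis r was then 0.921 for AIL4 (permutation p = 0.00076, adjusted p = 0.00456, rho = 0.944 with p = 0.00072 and adjusted p = 0.00432) and 0.885 without the 2 farthest libraries. For AIL1 it was 0.899 (permutation p = 0.0025, adjusted p = 0.01, rho = 0.874 with p = 0.00521 and adjusted p = 0.0208) and 0.931 without the 2 farthest. In P. davidiana r was 0.323 for AIL4 (permutation p = 0.422, adjusted p = 0.492, rho = 0.357 with p = 0.379 and adjusted p = 0.455) and 0.200 without the 2 farthest. For AIL1 there it was 0.633 (permutation p = 0.202, adjusted p = 0.302, rho = 0.685 with p = 0.0512 and adjusted p = 0.0878) and 0.679 without the 2 farthest. These 8 relations and the 4 between both genes below were adjusted together, 12 in all, by the Benjamini-Hochberg method. With median ratio scaling the AIL4 difference at 120 h was 0.78 (adjusted p = 0.159). The part of the scaling in the AIL4 levels was not tested further.

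In P. davidiana AIL4 was lower still, with only 2 of 12 libraries at 1 FPKM or more. Its libraries held 2.08, 0.137 and 0.414 FPKM at 0 h, 1.35, 0.15 and 0.611 at 48 h, 0.936, 0.163 and 0.185 at 96 h and 0.801, 0.413 and 0.842 at 120 h. The libraries of every later time overlapped those of 0 h, and replicate 1 was the highest at 0, 48 and 96 h. The means were 0.877 ± 1.05, 0.704 ± 0.606, 0.428 ± 0.440 and 0.685 ± 0.237 FPKM (SD, n = 3 each). The AIL4 differences against 0 h were -0.061, -0.30 and -0.026, with adjusted p of 1, 0.757 and 1. The 95% interval at 120 h ran from -0.94 to 0.88, so a change within these bounds in either direction is not excluded.

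**Figure D3:**
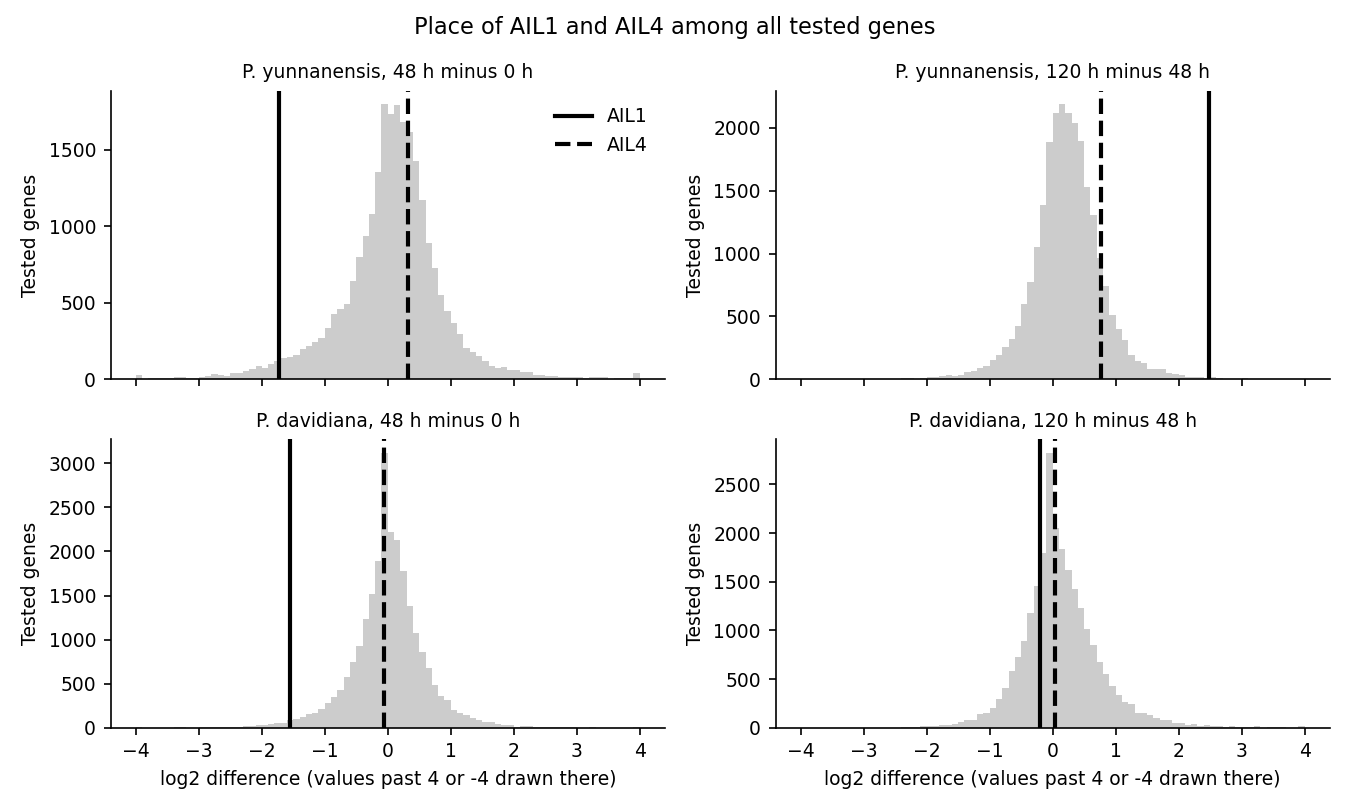
Histograms of the log2 difference of all 24643 tested genes on the log2(FPKM + 1) scale, with AIL1 as a solid and AIL4 as a dashed line, for 48 against 0 h (left) and 120 against 48 h (right) in each species. AIL1 lies in the low tail on the left in both species and in the high tail on the right in P. yunnanensis, where 99.7% of tested genes had a lower difference, and at -0.20 in P. davidiana.

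The species comparison asked when the stems of the poplars differed in these genes. They did not pass the test at 0 or 48 h and did for both genes at 96 and 120 h, always with P. davidiana lower. At 0 h the AIL1 difference, P. davidiana minus P. yunnanensis, was 0.31 (95% interval -0.67 to 1.28, adjusted p = 0.633) and that of AIL4 was -0.39 (95% interval -1.30 to 0.52, adjusted p = 0.506). At 48 h they were 0.48 (adjusted p = 0.44) and -0.77 (adjusted p = 0.166). Called genes made up 41.4% of those tested at 0 h and 41.9% at 48 h.

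At 96 h the P. yunnanensis mean was 5.12 times the P. davidiana mean for AIL1 and 8.36 times for AIL4, and the libraries of the species did not overlap for either gene. The share of all tested genes without such overlap was not counted. The AIL1 difference was -1.47 (SE 0.47, adjusted p = 0.0149) and the AIL4 difference was -1.70 (SE 0.44, adjusted p = 0.00362). Genes called at this time made up 45.8% of those tested, and 31.9% of tested genes were called lower in P. davidiana, so both calls stand on a high background, and 16.02% and 12.6% of tested genes had a lower difference than AIL1 and AIL4. The median difference of all tested genes was -0.34. With median ratio scaling AIL1 was at -1.27 (adjusted p = 0.0166) and AIL4 at -1.51 (adjusted p = 0.005). The AIL1 call ended with quantile normalization, at -0.81 (adjusted p = 0.0762), and without P. yunnanensis 96 h replicate 3 (0.0952) or P. davidiana 96 h replicate 2 (0.0691), in a range of 0.00396 to 0.0952, and its difference was -2.23 with a pseudocount of 0.1. AIL4 stayed called under all 14 alternatives, at -1.04 with quantile normalization and -3.07 with a pseudocount of 0.1.

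At 120 h the AIL1 mean in P. yunnanensis was 8.14 times that in P. davidiana, and the AIL4 mean 5.87 times. All 3 P. yunnanensis libraries lay above all 3 of P. davidiana for both genes, although replicate 2 was the lowest of the P. yunnanensis libraries for both. The share of all tested genes that separate in this way was not counted. The AIL1 difference was -2.20 (SE 0.47, 95% interval -3.18 to -1.23, adjusted p = 0.000726), and 6.51% of tested genes had a lower one. The AIL4 difference was -1.50 (SE 0.44, 95% interval -2.41 to -0.59, adjusted p = 0.00826), with 14.6% of tested genes lower. At this time 46.9% of tested genes were called and 31% of tested genes were called lower in P. davidiana, and the median difference was -0.29. With median ratio scaling AIL1 was at -1.98 (adjusted p = 0.00064) and AIL4 at -1.29 (adjusted p = 0.0133). AIL1 stayed called under all 15 alternatives. The AIL4 call ended without P. yunnanensis 120 h replicate 1 (adjusted p = 0.0504, range 0.00195 to 0.0504), and its difference was -0.91 with quantile normalization and -2.31 with a pseudocount of 0.1.

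Fragments of the species may align unequally to a reference that is nearer to either of them, which can move these differences. The sources used here name no reference, though 42950 of the 43836 identifiers carry annotation version 3.1. The part of alignment in the species differences of both genes was not tested. The stems were sampled as bulk tissue, so fewer cells that express a gene and less RNA per cell cannot be told apart.

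Whether the species differed in their change from 0 h was tested as an interaction, by subtracting the change in P. yunnanensis from that in P. davidiana. For AIL1 at 120 h it was -2.51 (SE 0.66, 95% interval -3.89 to -1.13, limma adjusted p = 0.0161), from -1.76 in P. davidiana and 0.76 in P. yunnanensis. In this interaction 14.9% of tested genes were called and 9.15% of tested genes were called lower, and 1.66% had a lower value than AIL1. The call held under all 21 alternatives, with adjusted p of 0.00654 to 0.0496. With median ratio scaling this interaction was -2.24 (adjusted p = 0.0144). At 48 h the AIL1 mean was below that at 0 h in both species, a fall called only in P. yunnanensis. The interaction at that time was 0.17 (95% interval -1.21 to 1.55, adjusted p = 0.939), where 1.9% of tested genes were called. At 96 h it was -1.78 (SE 0.66, adjusted p = 0.0948), with 9.09% called, and passed without P. yunnanensis 0 h replicate 3 (adjusted p = 0.0454, range 0.0454 to 0.232).

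The change from 48 to 120 h, again chosen after the values were seen, differed between the species by -2.68 for AIL1 (SE 0.66, adjusted p = 0.0696, unadjusted p = 0.000635). It did not pass over all genes, where 0.475% were called, although only 0.150% of tested genes had a lower value. Among the fits without a replicate block, it passed with median ratio scaling (adjusted p = 0.0469), quantile normalization (0.0256), the spread weighted by group (0.0452) and without P. yunnanensis 120 h replicate 2 (0.0342), in a range of 0.0256 to 0.226. For AIL4 no interaction passed. Its values were -0.38 at 48 h (adjusted p = 0.844), -1.31 at 96 h (adjusted p = 0.183), -1.11 at 120 h (95% interval -2.40 to 0.18, adjusted p = 0.226) and -0.73 from 48 to 120 h (adjusted p = 0.611).

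Ordered by mean level, AIL1 ran from P. yunnanensis at 120 h through P. davidiana at 0 h, P. yunnanensis at 0 h and P. yunnanensis at 96 h to P. davidiana at 48, 120 and 96 h, with P. yunnanensis at 48 h last. For AIL4 the 4 P. yunnanensis groups came first, in the order 120, 96, 48 and 0 h, followed by P. davidiana at 0, 48, 120 and 96 h. In both orders the libraries of each group overlapped those of the next one, so the order between neighbours is not certain. Overlap of 3 libraries per group does not show that neighbours are equal.

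Which of the paralogs stood higher within a library differed between times. In P. yunnanensis AIL1 exceeded AIL4 in all 3 libraries at 0 h and at 120 h, in 1 of 3 at 96 h and in 0 of 3 at 48 h. In P. davidiana it exceeded AIL4 in all 3 libraries at 0, 48 and 96 h and in 2 of 3 at 120 h. The balance was taken as log2((AIL1 + 1)/(AIL4 + 1)) within a library, which a change of scaling moves only through the added 1. In P. yunnanensis it was 1.38 ± 0.49, -0.67 ± 0.43, 0.17 ± 0.37 and 1.05 ± 0.16 from 0 h through 48 and 96 h to 120 h (SD, n = 3 each). The P. davidiana values were 2.07 ± 0.82, 0.57 ± 0.35, 0.40 ± 0.32 and 0.34 ± 0.38 in the same order (SD, n = 3 each). At 48 h the highest P. yunnanensis library, at -0.18, lay below the lowest of P. davidiana, at 0.30. At 120 h the order was reversed, with the lowest P. yunnanensis library at 0.94 and the highest of P. davidiana at 0.57.

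Averaged over the times, the balance in P. davidiana minus that in P. yunnanensis was 0.37 (exact two-sided permutation of species within each time, p = 0.136). The mean balance was higher in P. davidiana at 0, 48 and 96 h and lower at 120 h, so the average holds opposite differences. Rescaling each library to the same sum of FPKM (TPM) gave 0.46 (exact permutation p = 0.0922). The species difference in balance depended more on the pseudocount. It was 0.95 with a pseudocount of 0.1 (exact permutation p = 0.0221) and 1.18 with none (exact permutation p = 0.0146), and p over its alternatives ran from 0.0146 to 0.222. The low AIL4 values of P. davidiana carry more weight there, such as 0.137 FPKM in 0 h replicate 2, where AIL1 was 39.8 times as high.

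**Figure D4:**
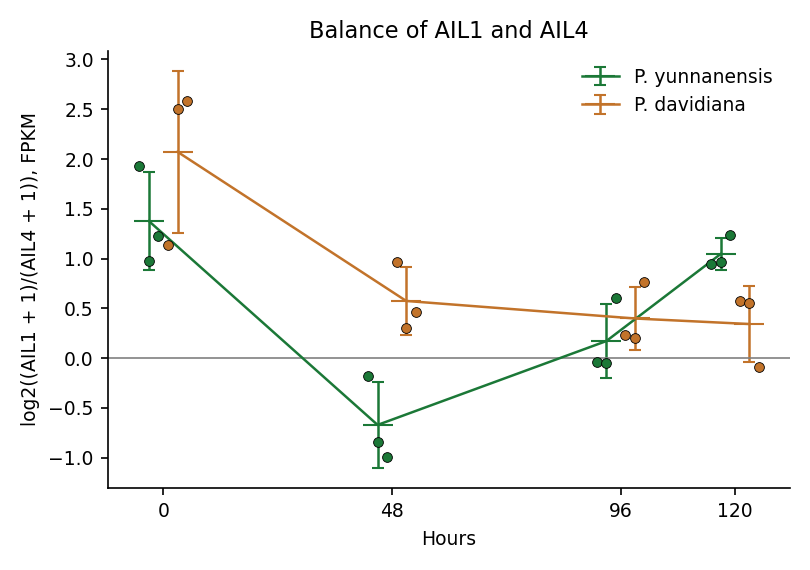
Balance of AIL1 and AIL4, as log2((AIL1 + 1)/(AIL4 + 1)) of FPKM values, against hours, with 1 point per library, a dash at the mean of 3 libraries and bars of 1 SD. Points above 0 have more AIL1 than AIL4, and all 3 P. yunnanensis libraries at 48 h lie below 0.

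Replicate libraries of P. yunnanensis that held more AIL1 than others of their time tended to hold more AIL4. At 48 h, however, replicate 3 held less AIL1 than replicate 1 (0.468 against 0.562 FPKM) but more AIL4 (1.92 against 0.768 FPKM). For deviations from the mean of each time over the 12 P. yunnanensis libraries, Pearson r was 0.825 (permutation within times, p = 0.00842, adjusted p = 0.0253) and Spearman rho was 0.804 (p = 0.00867, adjusted p = 0.0260). Without the 2 libraries farthest from the median r was 0.725, and with median ratio scaling it was 0.765. Of 24546 genes 93.6% had a lower r with AIL1 in these deviations, so many other genes moved with it as closely. Both genes also moved with the median ratio factor there, at r = 0.899 for AIL1 and 0.921 for AIL4 in the same 12 libraries, and its part in the relation was not tested.

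For levels rather than deviations, permuted across times, r between AIL1 and AIL4 was 0.588 in P. yunnanensis (permutation p = 0.0445, adjusted p = 0.101, rho = 0.664 with p = 0.0229 and adjusted p = 0.0549) and 0.502 without the 2 farthest libraries. In P. davidiana it was 0.374 (p = 0.232, adjusted p = 0.309, rho = 0.399 with p = 0.201 and adjusted p = 0.268), and for deviations 0.509 (p = 0.116, adjusted p = 0.199, rho = 0.497 with p = 0.129 and adjusted p = 0.194). Without the 2 farthest libraries the P. davidiana r was 0.249 for levels and 0.189 for deviations.

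**Figure D5:**
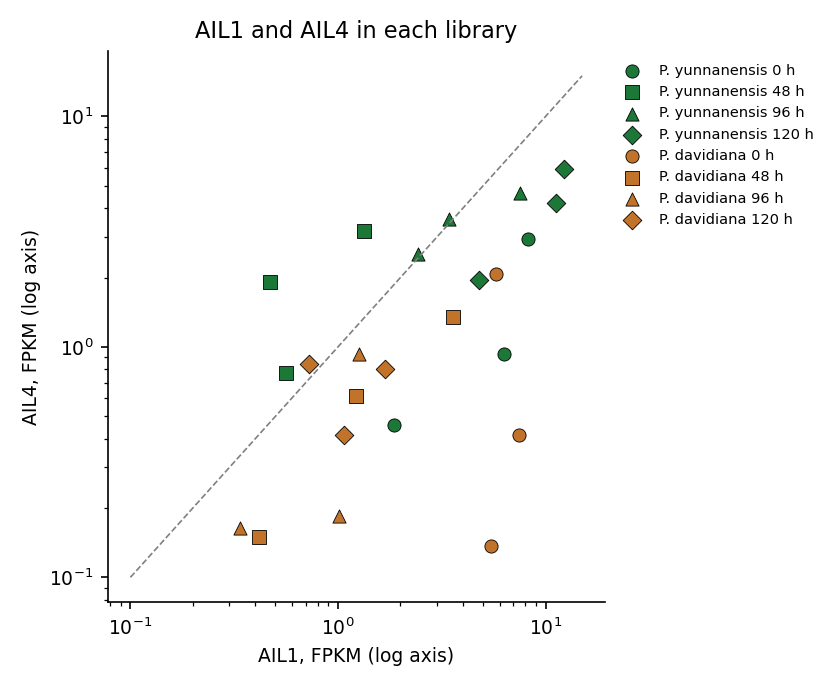
AIL4 against AIL1 in FPKM on log axes, with 1 point per library, colour for species and shape for time, and a dashed line where both are equal. The 3 P. yunnanensis libraries at 48 h lie above the line with AIL1 at 0.468 to 1.34 FPKM, and the P. davidiana libraries after 0 h fill the lower left.

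The genes whose pattern over the libraries was most like each member were found by Pearson r, as a description. It was taken on log2(FPKM + 1) over the 24 libraries after the mean of each species was taken off. This r also holds differences between replicates of a time, which moved with the median ratio factor for both genes in P. yunnanensis. The part of that factor in the matches was not tested. For AIL1 these were Potri.009G125400.v3.1 (r = 0.888) and Potri.017G009900.v3.1 (r = 0.887), of 18625 genes with at least 5 FPKM in a group. Potri.009G125400.v3.1 stood at 13.6 ± 7.08, 7.96 ± 2.20, 15.8 ± 5.06 and 20.3 ± 3.21 FPKM at 0, 48, 96 and 120 h in P. yunnanensis, and at 27.5 ± 3.31, 12.8 ± 3.47, 10.2 ± 0.999 and 13.5 ± 0.819 in P. davidiana (SD, n = 3 each). Like that of AIL1, its mean was lower at 48 than at 0 h in both species and higher at 120 than at 48 h in P. yunnanensis. Such likeness follows from its choice by r. The most opposite patterns were those of Potri.009G120200.v3.1 (r = -0.858) and Potri.011G167200.v3.1 (r = -0.834). In the latter the P. yunnanensis means were 120 ± 59.6, 249 ± 107 and 121 ± 45.6 FPKM at 0, 48 and 120 h, and the P. davidiana means were 73.8 ± 7.89, 310 ± 84.2 and 265 ± 52.0 (SD, n = 3 each).

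For AIL4 the most alike were Potri.004G115900.v3.1 (r = 0.915) and Potri.001G438300.v3.1 (r = 0.902), and the most opposite Potri.006G147100.v3.1 (r = -0.856) and Potri.T046100.v3.1 (r = -0.838). Potri.004G115900.v3.1 stood at 13.5 ± 6.51, 15.2 ± 4.24, 23.1 ± 3.38 and 24.3 ± 5.97 FPKM in P. yunnanensis in the order of time (SD, n = 3 each). The AIL genes were not each other's nearest match. Their r was 0.509, and 2754 of 24642 genes were closer to AIL1 than AIL4 was, while 5910 were closer to AIL4 than AIL1 was.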

How the data were processed

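RNA was sequenced from 24 stem libraries of 2 species at 4 times, 3 per group by title. The authors deposited 1 table of FPKM values, per the file headers. Aligner, counter and build were not given in the sources used here. The number of columns left unassigned was 0. AIL1 and AIL4 and all lists were chosen with earlier results of these data known. Lists of other AIL, cyclin D, E2F, GRF, ARF and tissue marker genes were written by name, and the table pairs no names with identifiers, so they were not analysed here.

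The genes that reached 1 FPKM in 3 or more libraries were fitted together on log2(FPKM + 1), a scale that understates changes of low genes, with limma 3.58.1 in R 4.3.3 (variance trend, 1 mean per group, 16 residual degrees of freedom before moderation). Benjamini-Hochberg adjustment ran over all tested genes within each of 20 comparisons, and an adjusted p under 0.05 is called. The fit was tested on simulated data. Relative depth was the most frequent ratio of low values (0.03 to 0.3 FPKM) to P. yunnanensis 96 h replicate 1, so it counts mapped fragments. Correlations and figures were made in Python 3.11.15 with numpy 2.4.6, scipy 1.17.1 and matplotlib 3.10.9, with 100000 permutations per correlation. Genes most alike were named by a rule on r, with at most 2 alike and 2 opposite per member.

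The labels do not say what a replicate number marks. Deviations of same-numbered libraries correlated above 0.1 for all 3 numbers in 4 of 16 comparisons. These were P. yunnanensis 96 against 48 h and P. davidiana 48 against 0 h, 96 against 48 h and 120 against 96 h. The main fit has no block. Alternatives were other pseudocounts, filters, scalings and spreads, the replicate number as a block, and each library left out in turn.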

Additional observations from a re-analysis of the deposited data

Results flagged for a closer look

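The change of AIL1 at 120 h against 0 h differed between the species in the test of the difference itself, by -2.51 on the log2(FPKM + 1) scale (P. davidiana change minus P. yunnanensis change, limma adjusted p = 0.0161). In this interaction 14.9% of tested genes were called and 9.15% of tested genes were called lower. The 3 P. davidiana libraries at 120 h lay below all 3 of that species at 0 h, while the P. yunnanensis libraries at 120 h overlapped those at 0 h. How many of all tested genes show such a pattern was not counted. Groups of 3 libraries are too small to be screened for outlying samples.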

How the results depend on the processing

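Of 41 results on AIL1 and AIL4, 9 were called, none of which changed sign under any alternative, and 4 of the 9 stayed called under all that were run (AIL1 in P. davidiana at 96 h against 0 h, the AIL1 species difference and interaction at 120 h, the AIL4 species difference at 96 h). Of all tested genes, 14.9% were called in the first of these comparisons and 14.9% in the interaction. The species comparisons called 45.8% at 96 h and 46.9% at 120 h, so calls there stand on a high background. In all, 600 of 655 alternative values kept the direction and the side of the threshold, and the 25 that changed sign belonged to results that were not called. The filter of 5 FPKM in 3 libraries removes AIL4 and gives it no value. FPKM without counts and 3 libraries per group limit the precision. The causes of the shifts below were not tested.

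The AIL1 fall at 48 h in P. yunnanensis stayed at -1.73 but lost its call with the spread weighted by group (adjusted p = 0.101) and with the compared groups alone (0.176), as did the rise from 48 to 120 h there, at 2.48 with the compared groups alone (0.227). In P. davidiana the 48 h change of AIL1 gained a call at -1.61 with median ratio scaling (0.0274), at -1.53 with quantile normalization (0.0194) and at -1.56 with the spread weighted by group (0.0444). The species difference of AIL1 at 96 h was -0.81 with quantile normalization (0.0762). The AIL1 interaction of 120 against 48 h gained a call at -2.48 with median ratio scaling (0.0469), at -2.52 with quantile normalization (0.0256) and at -2.68 with the spread weighted by group (0.0452). AIL4 in P. davidiana changed sign at 120 against 0 h with a pseudocount of 0.1 (0.24), and at 120 against 48 h with median ratio scaling (-0.0042) and quantile normalization (-0.074). The balance of both genes was 0.95 with a pseudocount of 0.1 (exact permutation p = 0.0221) and 1.18 with none (0.0146).

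With the replicate number as a block, AIL1 in P. davidiana at 48 h passed at -1.56 (adjusted p = 0.042), AIL4 in P. yunnanensis at 120 h passed at 1.09 (0.0481) and the AIL1 interaction of 120 against 48 h passed at -2.68 (0.0478). For the AIL4 change at 120 h and the AIL1 interaction the numbers are not shown to pair the libraries. The block changed no other call.

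Leaving out 1 library at a time gave these ranges where a call or sign changed. In P. yunnanensis against 0 h, AIL1 ran from -2.24 to -1.39 at 48 h and from -0.70 to 0.14 at 96 h, and AIL4 from 0.70 to 1.42 at 96 h and from 0.78 to 1.50 at 120 h. From 48 to 120 h AIL1 ran from 2.26 to 2.86, and from 96 to 120 h AIL4 from -0.20 to 0.42. In P. davidiana against 0 h, AIL1 ran from -2.02 to -1.17 at 48 h and from -1.92 to -1.61 at 120 h, and AIL4 from -0.35 to 0.37, -0.59 to 0.13 and -0.32 to 0.40 at 48, 96 and 120 h. From 48 to 96 h AIL1 ran from -0.80 to 0.045 and AIL4 from -0.49 to 0.027, from 48 to 120 h AIL1 from -0.59 to 0.26 and AIL4 from -0.22 to 0.30, and from 96 to 120 h AIL1 from -0.010 to 0.37. The species difference ran from -0.20 to 0.64 for AIL1 and -0.82 to 0.022 for AIL4 at 0 h, from -1.75 to -1.09 for AIL1 at 96 h and from -1.84 to -1.23 for AIL4 at 120 h. The interaction ran from -0.29 to 0.68 for AIL1 and -0.79 to 0.046 for AIL4 at 48 h, from -2.11 to -1.27 for AIL1 at 96 h and from -3.07 to -2.22 for AIL1 at 120 against 48 h.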
